A study of Mus musculus with 17 samples.

Results

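RNA levels of 10 transcription factors of myeloid development (Cebpa, Cebpb, Cebpd, Cebpe, Spi1, Gfi1, Irf8, Klf4, Id2 and Gfi1b) were followed across 17 RNA-seq libraries of mouse hematopoietic stem and progenitor cells. The 10 genes were taken by symbol from a count table of 35321 genes. All 10 were among the 14920 genes that passed the filter on low counts.

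Poly(A) RNA was sequenced from bone marrow cells that had been sorted by flow cytometry from wild-type C57BL/6J mice, an inbred strain. Mice had received lipopolysaccharide (LPS, a bacterial cell wall product sensed by TLR4) into the peritoneum, alone or with an antibody that blocks the receptor for interleukin-10 (anti-IL-10R), or phosphate buffered saline (PBS). The amounts are 5 of LPS and 100 of antibody, in micrograms in the series text and in milligrams in the sample protocol, and neither unit was assumed to be right. The groups were PBS (titled day 0, 5 libraries), LPS harvested at 24 h (3 libraries), LPS with antibody harvested at 24 h (3), LPS harvested at 72 h (3) and LPS with antibody harvested at 72 h (3). Mouse age and the sort gates are not given in the sources used here, and no group with antibody alone or with a control antibody was analysed here. Nothing states that replicates are separate animals, so the p-values measure only the spread between these samples, which may be technical.

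Blood formation divides between granulocytes, monocytes and dendritic cells partly through the balance of a few transcription factors. C/EBP alpha and PU.1 (the product of Spi1) open the myeloid programme, C/EBP epsilon and GFI1 act in granulocytes, and IRF8 and KLF4 act in monocytes and dendritic cells. Granulocyte production in the steady state depends on C/EBP alpha, whereas C/EBP beta is needed for the accelerated production during infection known as emergency granulopoiesis.

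The members on which the results turn are Cebpa, Cebpb and Irf8, and the 250 bases before their annotated starts are shown to give the promoter context of the genes that moved. They come from RefSeq (GRCm38.p6), 5′ to 3′ on the gene's own strand, which is the plus strand for all 3. The windows are chr7:35119043-35119292 for Cebpa, chr2:167688665-167688914 for Cebpb and chr8:120736108-120736357 for Irf8. Capitals mark matches to any of the motifs searched on both strands: TATAAA (a core promoter box), TGACG (cyclic AMP response half-site), TTGCGNAA (C/EBP core), GAGGAAG (PU.1 core), TTCNNNGAA (STAT palindrome), AATCAC (GFI1 core) and CCAAT.
Cebpa: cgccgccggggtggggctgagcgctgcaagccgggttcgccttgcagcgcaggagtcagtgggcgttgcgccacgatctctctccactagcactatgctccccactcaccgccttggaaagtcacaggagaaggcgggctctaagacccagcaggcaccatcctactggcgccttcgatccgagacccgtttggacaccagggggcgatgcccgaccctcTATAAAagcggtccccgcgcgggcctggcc
Cebpb: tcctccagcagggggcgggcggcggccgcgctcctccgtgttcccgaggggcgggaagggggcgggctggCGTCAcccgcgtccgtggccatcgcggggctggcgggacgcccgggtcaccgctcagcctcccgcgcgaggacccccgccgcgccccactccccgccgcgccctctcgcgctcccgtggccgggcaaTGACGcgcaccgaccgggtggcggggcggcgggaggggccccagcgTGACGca
Irf8: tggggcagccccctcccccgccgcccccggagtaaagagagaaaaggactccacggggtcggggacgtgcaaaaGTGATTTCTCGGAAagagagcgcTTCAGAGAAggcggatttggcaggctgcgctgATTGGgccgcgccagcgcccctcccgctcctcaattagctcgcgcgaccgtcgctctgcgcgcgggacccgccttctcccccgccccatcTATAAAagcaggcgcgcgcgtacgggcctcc
The Cebpa window held a single match, TATAAA, 30 bases before the start. The Cebpb window held TGACG 3 times, at 180 (minus strand), 53 and 7 bases before the start. The Irf8 window held TATAAA at 31 bases, TTCNNNGAA at 171 and 153 bases, AATCAC at 176 bases (minus strand) and CCAAT at 121 bases (minus strand). The AATCAC match overlapped the first TTCNNNGAA match. None of the 3 windows held TTGCGNAA or GAGGAAG. Among 32851 mouse promoter windows of the same length, 12.37% held TATAAA, 17.77% TGACG, 7.02% TTCNNNGAA, 9.138% AATCAC, 33.85% CCAAT, 10.61% GAGGAAG and 0.6697% TTGCGNAA. These matches describe letters in the window and do not show binding. Windows were found for 7 of the 10 genes. Irf8 had another window, before an annotated start at 120738639, which held none of the motifs searched and is not shown.

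Total counts ran from 10516722 to 16006001 per library. Normalization factors (trimmed mean of M values, TMM) ran from 0.947 to 1.12 except in LPS 24 h library 1, at 0.799. No libraries of the same group were near-copies of each other, and pairs across groups were not examined in this way. Of 10 stem and progenitor markers, including Kit and Cd34, none was at 0 in any library. The same held for 11 resident macrophage markers, so this does not check the labelled cell type. The summed level of the stem and progenitor markers, in CPM (read count scaled to library size), was 1627 to 2398 with PBS and 1018 to 1175 in LPS 24 h. Of the 10 markers, 6 were lower in every LPS 24 h library than in any PBS library, where 42.8% of all genes did not overlap. Ly6a moved the other way, from 32.6 to 85.2 CPM with PBS to 108 to 222 CPM in LPS 24 h, and the rest overlapped. The summed level of 11 resident macrophage markers was 338 to 3139 with PBS, highest in PBS library 2, and 69.7 to 103 in LPS 24 h. That of the 9 B lineage markers found in the table, of 10 listed, was 398 to 1359 with PBS and 75.6 to 105 in LPS 24 h. Jchain made up most of this sum with PBS, at 250 to 1178 CPM, and was at 19 to 32.96 CPM in LPS 24 h. Of the 9, 8 were lower in every LPS 24 h library than in any PBS library, and Cd79b overlapped. By edgeR 4 of the 9 were called lower, beside 18.5% of all genes. The part of these shifts in the results that follow was not tested, and in bulk samples fewer cells of a type and less RNA per cell cannot be told apart.

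At steady state the 10 factors covered a wide range. For a rough comparison between genes, levels were divided by the kilobases of all annotated exons joined (7055 bp for Irf8, 2695 bp for Spi1). This length can differ from that of the transcript made, so the order of genes depends on it. On this scale Irf8 (52.4 ± 14.6 CPM per kb, SD, n = 5) and Spi1 (48.1 ± 8.88) stood highest in PBS libraries and overlapped each other. Cebpa followed at 28.4 ± 9.59 CPM per kb, and the other C/EBP genes were lower, with Cebpe at 11 ± 7.32, Cebpb at 4.62 ± 1.66 and Cebpd at 3.86 ± 1.04. The ranges of Cebpb and Cebpd overlapped, as did those of Gfi1b (18.3 ± 8.99), Gfi1 (15.7 ± 5.67) and Id2 (14.6 ± 7.23). Klf4 stood at 5.30 ± 2.56 CPM per kb.

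The other 7 genes lie in GRCm38 (GENCODE M21) at chromosome 16, 15887286 to 15891031, plus strand (Cebpd), chromosome 14, 54710360 to 54712174, minus strand (Cebpe), and chromosome 2, 91082390 to 91115756, plus strand (Spi1). Gfi1 lies at chromosome 5, 107716657 to 107726036, Klf4 at chromosome 4, 55527143 to 55532466, Id2 at chromosome 12, 25093799 to 25097140, and Gfi1b at chromosome 2, 28609450 to 28621982, all on the minus strand. Counts cover whole genes, so exons and untranslated parts were not separated.

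The PBS libraries differed among themselves. PBS library 5 was the lowest of the 5 for 9 of the 10 factors, all but Id2, and it had the highest summed stem and progenitor markers, 2398 CPM. Its Cebpe level was 2.17 CPM, against 8.65 to 24.1 CPM in the other 4 PBS libraries. Its Cebpa level was 38.5 CPM, against 61.0 to 98.8 CPM. PBS libraries 2 and 4 were each the highest for 4 factors.

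**Figure D1:**
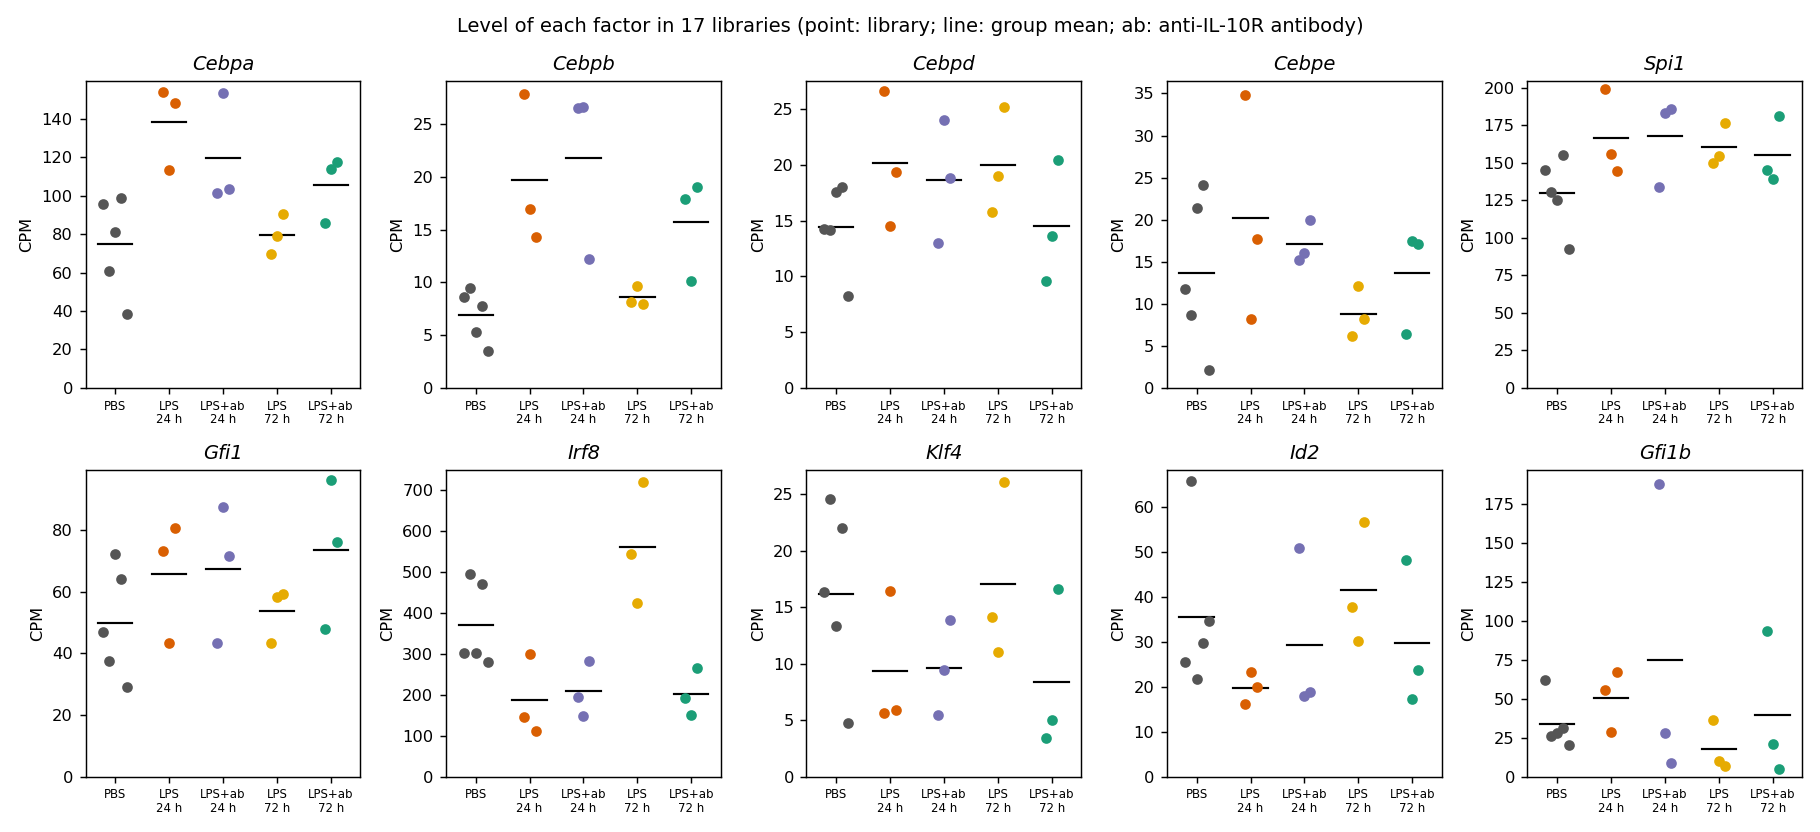
CPM of each of the 10 factors (vertical axis, linear from 0) in 17 libraries, by group on the horizontal axis; each point is a library and each line a group mean. Cebpb libraries of LPS 24 h lie at 14.3 CPM or more, above the PBS maximum of 9.51 CPM, and Irf8 is highest in LPS 72 h, at 423 to 719 CPM.

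To ask how the factors responded to LPS at 24 h, LPS 24 h libraries were compared with PBS libraries. Cebpb and Cebpa rose and Irf8 fell. Thus 3 of the 10 factors passed the test (edgeR quasi-likelihood, Benjamini-Hochberg adjusted p below 0.05 over 14920 genes), 2 higher and 1 lower. Across all genes 37.6% passed in this comparison (19.1% higher and 18.5% lower), so the share among the factors was near the background. For 2 factors the LPS 24 h libraries stood entirely apart from the PBS libraries, as they did for 42.8% of all genes. The median log2 change was 0.43 over the 10 factors and -0.03 over all genes.

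Cebpb (chromosome 2, 167688915 to 167690418, plus strand, 1 exon; GRCm38, GENCODE M21) encodes C/EBP beta. Its level was 8.66, 9.51, 5.27, 7.76 and 3.51 CPM in PBS libraries 1 to 5 and 27.9, 17 and 14.3 CPM in LPS 24 h libraries 1 to 3. Every LPS 24 h library lay above every PBS library. The rise was 2.84-fold (log2 change 1.5, SE 0.33, edgeR adjusted p = 0.00299), and the call held in 8 of 8 fits that left out 1 library, with log2 changes of 1.18 to 1.70. Strand use in counting is not given in the sources used here, and 312 bp of the Cebpb exon (20.7%) overlap Tmem189 on the other strand. The log2 change of Tmem189 was 0.19 (edgeR adjusted p = 0.247). Opposite-strand genes also overlap 562 bp of Cebpd exon (Spidr), 101 bp of Gfi1 (A430072P03Rik) and 51 bp of Cebpa (Gm45091), so these counts are uncertain to that extent.

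Cebpa (chromosome 7, 35119293 to 35121928, plus strand, 1 exon) encodes C/EBP alpha, the factor that starts granulocyte and monocyte commitment. Its level was 95.7, 61.0, 80.9, 98.8 and 38.5 CPM with PBS and 154, 113 and 148 CPM in LPS 24 h, again without overlap. The rise was 1.85-fold (log2 change 0.89, SE 0.24, edgeR adjusted p = 0.0109). Without LPS 24 h library 1 the adjusted p was 0.0517. The Cebpb to Cebpa ratio of read counts within a library had a median of 9.06% with PBS (range 6.52% to 15.6%) and 15% in LPS 24 h (range 9.62% to 18.1%), and these ranges overlapped.

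Irf8 (chromosome 8, 120736358 to 120756694, plus strand, 11 exon blocks) encodes the factor that favours monocyte and dendritic cell fates over granulocytes. Its level was 302, 494, 302, 469.6 and 281 CPM with PBS and 147, 300.1 and 111 CPM in LPS 24 h. LPS 24 h libraries 1 and 3 lay below every PBS library, while library 2 lay within the PBS range. The fall was 1.99-fold (log2 change -0.99, SE 0.33, edgeR adjusted p = 0.0278). With the replicate number as a block over all 17 libraries, the log2 change was -0.98 (edgeR adjusted p = 0.0743). That fit sets 1 effect per number across every group, and PBS libraries 4 and 5 share their number with no other library. It is therefore not a test of pairs within these groups. The call was also lost without PBS library 2 or 4 or LPS 24 h library 1 or 3, with adjusted p up to 0.132 and log2 changes of -1.52 to -0.72 over the 8 fits. Plasmacytoid dendritic markers, 8 genes of a cell type that depends on IRF8, summed to 255 to 525 CPM with PBS and 249.5 to 457 CPM in LPS 24 h, but Bst2 moved against the rest. Bst2 was at 60.8 to 132 CPM with PBS and 153 to 397 CPM in LPS 24 h, whereas the other 7 markers were lower in every LPS 24 h library than in any PBS library, against 42.8% of all genes without overlap. Siglech went from 14.3 to 57.1 CPM down to 0.64 to 3.64 CPM, and Tcf4 from 99.7 to 155 CPM down to 49.0 to 72.4 CPM. Of the 7 markers tested, 5 fell and 1 rose by edgeR, beside 18.5% and 19.1% of all genes. The part of these cells in the Irf8 fall was not tested.

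The other 7 factors did not pass in LPS 24 h. Among genes of the granulocyte side, the log2 change was 0.47 for Cebpd (adjusted p = 0.214), 0.56 for Cebpe (adjusted p = 0.456) and 0.39 for Gfi1 (adjusted p = 0.333) by edgeR. The Cebpe libraries spanned 8.24 to 34.8 CPM in LPS 24 h, and its log2 change was -0.07 without library 1. Spi1, which encodes PU.1, changed by 0.36 (unadjusted p = 0.0474, edgeR adjusted p = 0.102), from 92.4 to 155 CPM with PBS to 144 to 199 CPM. Klf4, a monocyte factor, changed by -0.79 (adjusted p = 0.296) and Id2, which encodes an inhibitor of E proteins, by -0.84 (adjusted p = 0.138), both by edgeR. Gfi1b, which encodes a repressor related to GFI1 that acts in the erythroid and megakaryocyte lineages, changed by 0.58 (edgeR adjusted p = 0.621).

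**Figure D2:**
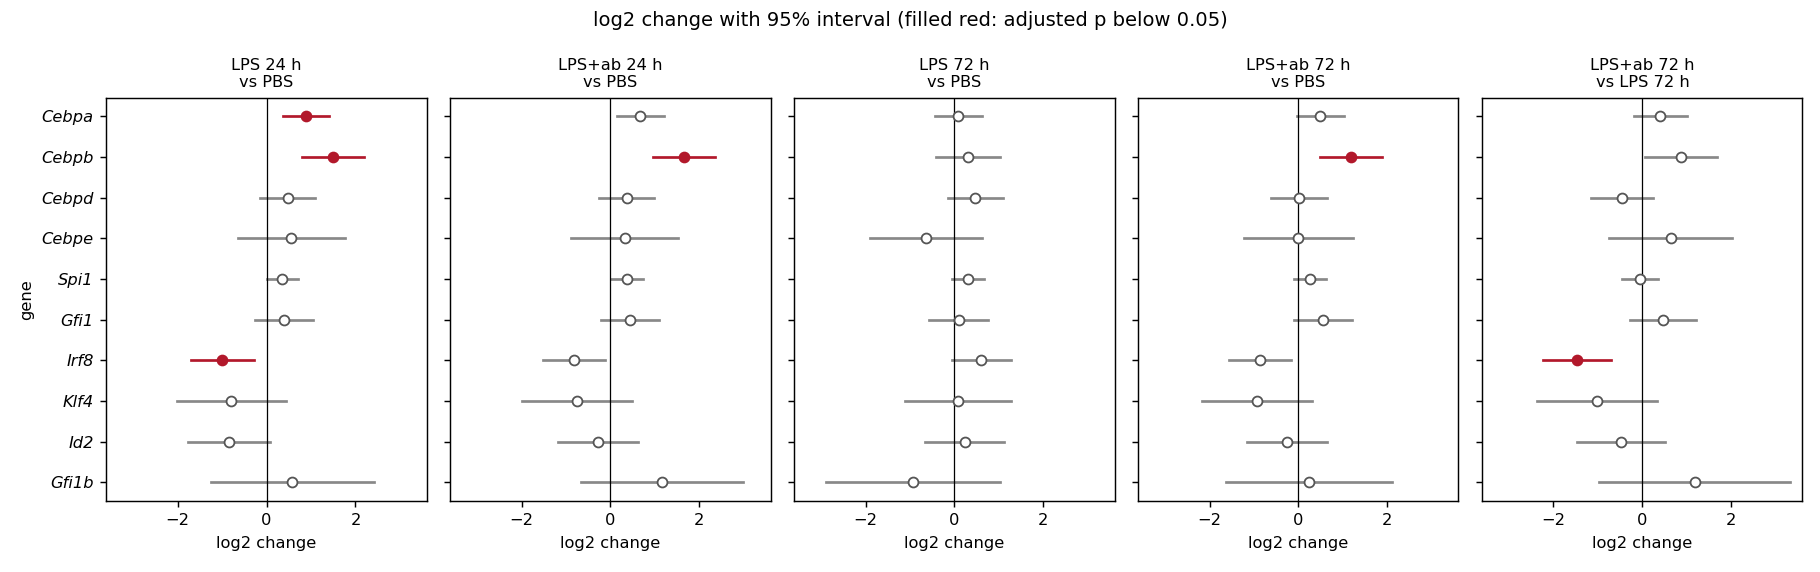
log2 change (horizontal axis) of each factor (vertical axis) in 5 comparisons, with 95% intervals from the edgeR fit; filled red points have an adjusted p below 0.05 and "ab" is the antibody. Cebpb is the factor called in all 3 comparisons of a 24 h group or the 72 h antibody group with PBS, and no factor is called in LPS 72 h against PBS.

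LPS with antibody at 24 h gave the same call for Cebpb. Against PBS, 1 of the 10 factors passed, compared with 24.2% of all genes, and 2 had libraries that did not overlap, compared with 31% of all genes. Both 24 h comparisons share the PBS libraries. Cebpb was at 26.5, 26.7 and 12.3 CPM in the 3 libraries, all above PBS, a 3.14-fold rise (log2 change 1.65, SE 0.33, edgeR adjusted p = 0.00543). The call held in 8 of 8 fits with 1 library left out (log2 change 1.49 to 1.97).

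Cebpa was at 102, 154 and 103 CPM in the same libraries, all above PBS, with a log2 change of 0.67 (edgeR adjusted p = 0.0568). Irf8 was at 194, 149 and 282 CPM, with libraries 1 and 2 below all PBS libraries and library 3 within the PBS range. Its log2 change was -0.83 (edgeR adjusted p = 0.0766). Spi1 was at 134, 183 and 186 CPM, with a log2 change of 0.37 (edgeR adjusted p = 0.114).

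To ask whether blocking the IL-10 receptor altered the 24 h response, LPS with antibody was set against LPS alone at 24 h. None of the 10 factors passed by edgeR, DESeq2 or limma voom, 0 of 10 had an unadjusted edgeR p below 0.05, and 0% of all genes passed (1.83% had an unadjusted p below 0.05). The libraries overlapped for all 10 factors, against 3.16% of all genes without overlap. The 10 log2 changes ran from -0.24 to 0.58. For Irf8 the 95% interval of the difference was -0.59 to 0.92 and for Cebpb it was -0.64 to 0.94, so differences of either sign up to these bounds remain compatible with these samples.

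At 72 h after LPS alone, none of the 10 factors passed against PBS by edgeR, DESeq2 or limma voom, 0 of 10 had an unadjusted edgeR p below 0.05, and the smallest adjusted edgeR p was 0.477. Across all genes 0.0201% passed and 11.4% had an unadjusted p below 0.05. The libraries of all 10 factors overlapped with PBS, whereas those of 11.9% of all genes did not. Cebpb was at 8.15, 9.71 and 7.97 CPM, and only library 2 lay above the PBS maximum. Cebpa was at 69.9, 79.1 and 90.4 CPM, within the PBS range. Irf8 was at 544, 423 and 719 CPM, with libraries 1 and 3 above every PBS library.

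The 2 times after LPS alone were then compared directly. Relative to 24 h, Irf8 was higher at 72 h and Cebpb and Cebpa were lower, so 3 of the 10 factors passed, 1 higher and 2 lower, against 31.1% of all genes (14.7% higher and 16.4% lower). Irf8 was 3.02-fold higher (log2 change 1.60, SE 0.36, edgeR adjusted p = 0.00442), its libraries did not overlap, and the call held in 6 of 6 fits with 1 library left out (1.30 to 2.12). Cebpb was 2.29-fold lower (log2 change -1.19, SE 0.38, edgeR adjusted p = 0.0270) and Cebpa 1.74-fold lower (log2 change -0.80, SE 0.28, edgeR adjusted p = 0.0411), both without overlap. The Cebpb call was lost without LPS 24 h library 1 or any 1 of the 3 LPS 72 h libraries (adjusted p up to 0.138). The Cebpa call was kept only without LPS 24 h library 2, with adjusted p up to 0.131 otherwise, and was lost with upper-quartile scaling (log2 change -0.68, adjusted p = 0.0660). Id2 was at 37.7, 30.2 and 56.7 CPM at 72 h, all above the 16.1 to 23.3 CPM of 24 h, with a log2 change of 1.07 (edgeR adjusted p = 0.0982). It was 1 of 4 factors whose libraries did not overlap, against 45.4% of all genes.

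At 72 h Cebpb was called higher than with PBS in the group with antibody. LPS with antibody at 72 h was compared with PBS, and 1 of the 10 factors passed, against 13.2% of all genes. Cebpb was at 17.9, 10.2 and 19.1 CPM, all above the 9.51 CPM of the highest PBS library, a 2.27-fold rise (log2 change 1.18, SE 0.33, edgeR adjusted p = 0.0320). The call was lost without PBS library 3 or 5 or antibody 72 h library 1 or 3, with adjusted p up to 0.114. Irf8 was at 192, 151 and 265 CPM, all below the 281 CPM of the lowest PBS library, with a log2 change of -0.87 (edgeR adjusted p = 0.0842). These were the 2 factors without overlap, against 26.9% of all genes.

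To ask what blocking the receptor did at 72 h, the antibody group was set against LPS alone at that time. Irf8 was lower with the antibody. It was the 1 factor of 10 that passed, against 15.1% of all genes. Its level was 544, 423 and 719 CPM with LPS alone and 192, 151 and 265 CPM with LPS and antibody, without overlap. The fall was 2.77-fold (log2 change -1.47, SE 0.36, edgeR adjusted p = 0.0147). Without antibody library 1 or library 2 the adjusted p rose to as much as 0.0546, with log2 changes of -1.71 to -1.22 over the 6 fits. The summed plasmacytoid dendritic markers were at 246 to 397 CPM with LPS alone and 185 to 399.8 CPM with antibody, with Bst2 at 63.5 to 120 and 80.2 to 258 CPM. Tcf4 (133 to 147 against 88.1 to 105 CPM) and Cox6a2 (8.84 to 35.5 against 2.1 to 5.23 CPM) were lower with antibody without overlap, and these were the 2 of 7 tested markers that fell by edgeR. Across all genes the libraries of 33.2% did not overlap and 15.1% passed in this comparison, so these markers did not stand out. The part of plasmacytoid dendritic cells in the Irf8 difference was not tested.

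Cebpb moved the other way in its libraries, which did not overlap between these groups (17.9, 10.2 and 19.1 CPM against 8.15, 9.71 and 7.97 CPM), but its log2 change of 0.87 did not pass (SE 0.38, edgeR adjusted p = 0.126). The libraries of 33.2% of all genes did not overlap in this comparison. The other C/EBP genes gave log2 changes of 0.41 (Cebpa, adjusted p = 0.328), -0.46 (Cebpd, adjusted p = 0.359) and 0.63 (Cebpe, adjusted p = 0.528) by edgeR. Spi1 changed by -0.05 with a 95% interval of -0.45 to 0.35, the narrowest of the 10. Gfi1 changed by 0.45 (adjusted p = 0.388), Klf4 by -1.02 (adjusted p = 0.281), Id2 by -0.48 (adjusted p = 0.500) and Gfi1b by 1.17 (adjusted p = 0.442), all by edgeR.

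Between the antibody groups at 72 h and 24 h, 0 of the 10 factors passed by edgeR, DESeq2 or limma voom and 0 had an unadjusted edgeR p below 0.05, against 0% and 4.26% of all genes. The libraries of all 10 overlapped, whereas those of 9.29% of all genes did not. The 10 log2 changes ran from -0.92 to 0.12. The change in the antibody effect between 24 h and 72 h was tested as an interaction. No factor passed by edgeR, against 6.35% of all genes, and 1 of 10 had an unadjusted p below 0.05, against 24.2%. That factor was Irf8, with an interaction of -1.64 on the log2 scale (SE 0.51, unadjusted p = 0.00538, edgeR adjusted p = 0.0647). Irf8 was called by DESeq2 (-1.65, adjusted p = 0.0154) and by limma voom with sample weights (-1.81, adjusted p = 0.0350). Both methods also called more of all genes in the interaction, 1709 and 1585 against 947 by edgeR. With 1 library left out, edgeR called Irf8 in 2 of 12 fits, with adjusted p up to 0.157.

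**Figure D3:**
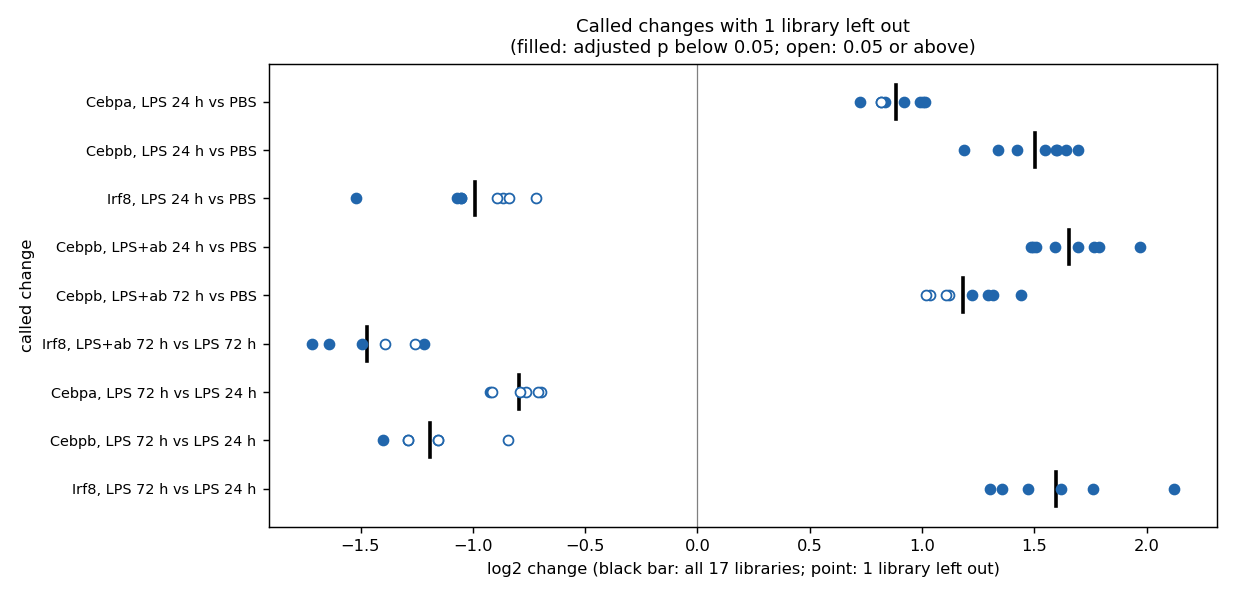
log2 change (horizontal axis) of the 9 called changes (vertical axis) with all 17 libraries (black bars) and with 1 library of the groups compared left out (points; filled where the adjusted p is below 0.05). The Cebpb rise at 24 h in both LPS groups and the Irf8 rise from 24 h to 72 h keep filled points throughout, and the Irf8 fall at 24 h has 4 open points.

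Within a library, counts of the factors of the granulocyte and monocyte sides can be set against each other without scaling. The Gfi1 to Irf8 ratio had a median of 13.7% with PBS (range 7.57% to 24.0%). It was 50%, 14.5% and 72.6% in LPS 24 h libraries 1 to 3, so library 2 stayed within the PBS range. It was 7.98%, 13.8% and 8.26% in LPS 72 h. With antibody it was 22.4%, 58.8% and 25.4% at 24 h and 25.1%, 63.9% and 28.7% at 72 h. At 72 h every antibody library was above every PBS and every LPS 72 h library. These ratios are given as a description, with no test.

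**Figure D4:**
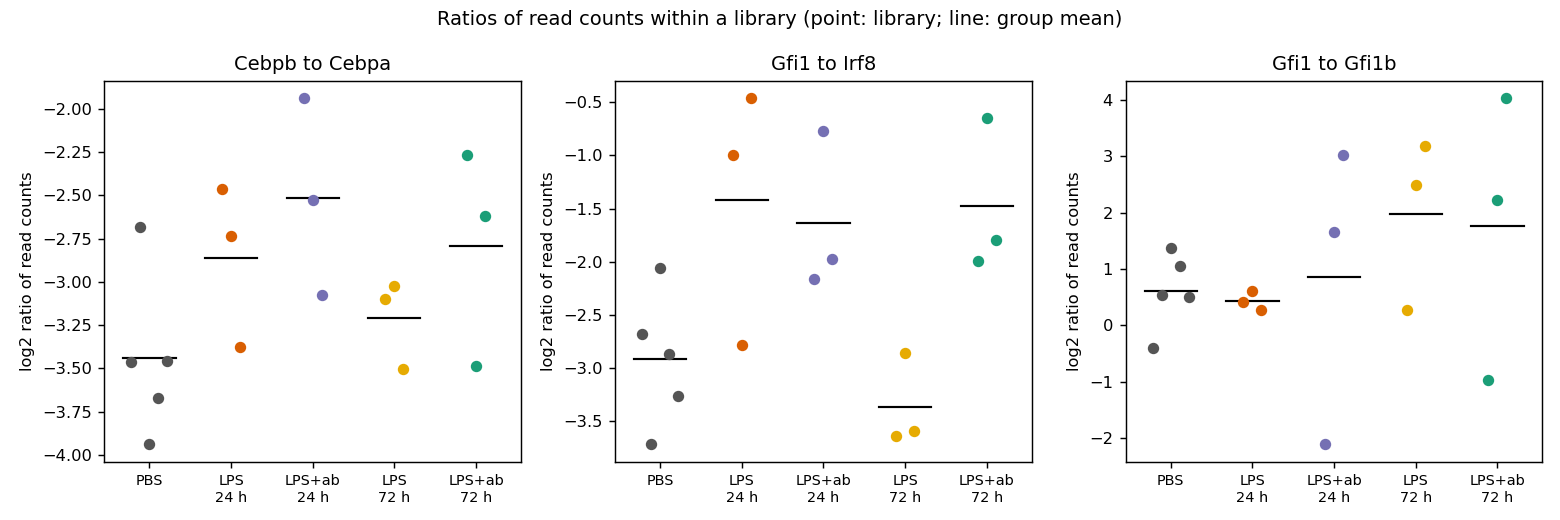
log2 ratio of read counts within a library (vertical axis) for 3 pairs of factors by group (horizontal axis); points are libraries and lines are group means. The Gfi1 to Irf8 ratio of the LPS 72 h libraries, -3.65 to -2.86, lies below that of the antibody 72 h libraries, -2.0 to -0.65, and the Gfi1 to Gfi1b ratio is most spread in the antibody groups.

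Gfi1b was the most variable factor. It encodes a zinc finger repressor needed for red cell and platelet formation. Its highest level, 188 CPM in antibody 24 h library 1, was 40.3 times its lowest, 4.67 CPM in antibody 72 h library 3, whereas the ratio of highest to lowest was 2.16 for Spi1. The libraries were at 188, 27.9 and 8.78 CPM in the antibody 24 h group, 93.7, 20.6 and 4.67 CPM in the antibody 72 h group and 36.1, 10.3 and 6.58 CPM in LPS 72 h. In each of these 3 groups library 1 was highest and library 3 lowest, whereas in LPS 24 h, at 55.3, 28.4 and 67.1 CPM, library 3 was highest. Without antibody library 1, its antibody effect at 72 h turned from a log2 change of 1.17 to -0.44.

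The summed level of 10 erythroid markers had the same order in those 3 groups, at 1204, 306 and 113 CPM in the antibody 24 h group, 576, 198 and 62.3 CPM in the antibody 72 h group and 276, 146 and 69.5 CPM in LPS 72 h. Car2 made up most of the highest sums, with a maximum of 874, 481 and 249 CPM in these groups. In the lowest antibody 72 h library 5 of the 10 markers were at 0. Basophil and mast cell markers, 6 genes, moved alongside at 739, 407 and 62.7 CPM in the antibody 24 h group. The order was also that of 8 megakaryocyte and platelet markers. They summed to 307, 171 and 61.7 CPM in the antibody 24 h group, 312, 265 and 39.9 CPM in the antibody 72 h group and 173, 103 and 57.1 CPM in LPS 72 h. In LPS 24 h the erythroid sum was 505, 281 and 504 CPM. Its genes were split there: Klf1 and Epor lay above every PBS library, Hba-a1, Hbb-bs, Hbb-bt and Slc4a1 below, and the rest overlapped. In PBS libraries 1 to 5 the erythroid sum was 524, 382, 459, 341 and 553 CPM and Gfi1b was at 62.1, 25.9, 28, 31.1 and 20.5 CPM. The order was not shared there, since library 5 had the highest erythroid sum and the lowest Gfi1b. The part of these cells in the Gfi1b level was not tested.

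**Figure D5:**
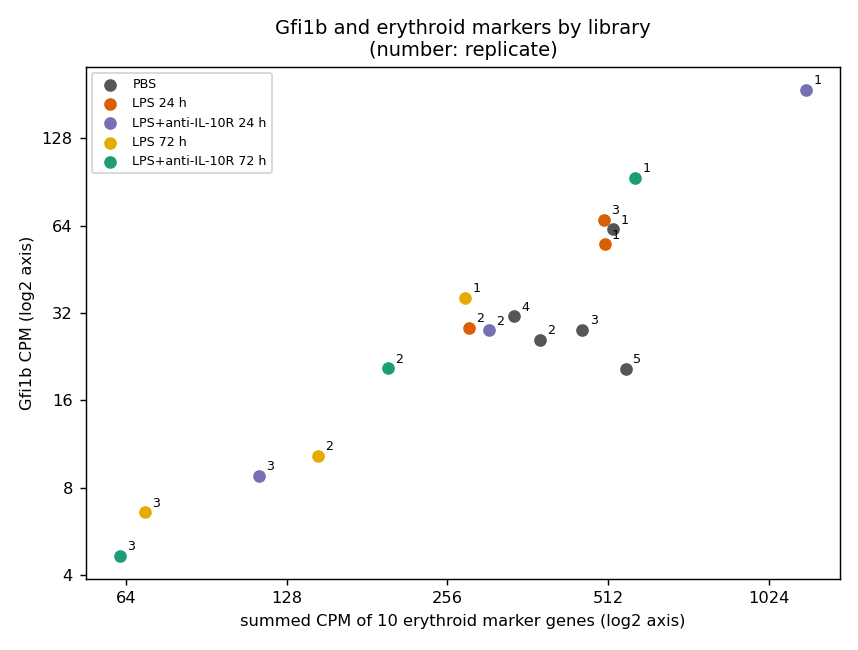
Gfi1b CPM (vertical, log2 axis) against the summed CPM of 10 erythroid marker genes (horizontal, log2 axis) in 17 libraries, coloured by group and numbered by replicate. Antibody 24 h library 1 stands at the top right (188 and 1204 CPM) and antibody 72 h library 3 at the bottom left (4.67 and 62.3 CPM).

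Some factors were highest or lowest in the same libraries, a pattern picked out after the values were seen. Irf8 and Klf4, both of the monocyte side, had their highest library in common in 5 of 5 groups, but their lowest in only 2 of 5. Cebpa and Cebpd also shared their highest library in 5 of 5 groups. The lowest library was the same for Cebpa, Cebpd, Cebpe and Gfi1 in 5 of 5 groups. Single libraries were extreme for many factors at once, such as PBS library 5 (lowest for 9) and LPS 72 h library 3 (highest for 7). How often other genes share these extremes is not given here, so the pattern is a description and not a result about these factors.

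The genes most like each factor over the 17 libraries were found among 9835 genes by the root mean square difference of centred log2 CPM. The nearest to Cebpb were Ctsz (0.28) and Ccne1 (0.28), and the nearest to Irf8 were Rasa4 (0.24) and Lbh (0.26). Cebpe had Rgcc (0.41) and the granule protease gene Ctsg (0.47). Id2 had H2-Aa (0.27), Ctss (0.29) and Cd74 (0.29), genes of antigen presentation. Gfi1b had Isg20 (0.32) and the heme breakdown enzyme gene Blvrb (0.43).

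Other genes of the same network were counted from lists. Among 12 partners and regulators of C/EBP proteins, 3 rose and 2 fell in LPS 24 h against PBS, with a median log2 change of 0.19 against -0.03 for all genes. Since 37.6% of all genes passed in this comparison, the 5 of 12 called here were near the background. Trib1, whose product targets C/EBP alpha for degradation, fell by 1.65 on the log2 scale (edgeR adjusted p = 0.00920). Fos fell by 1.29 (edgeR adjusted p = 0.0172), while Atf4 rose by 0.79 (adjusted p = 0.0105) and Batf by 0.75 (adjusted p = 0.0103). Trib1 was called in 8 of 8 fits with 1 library left out, but not without the 24 h libraries numbered 1 (adjusted p = 0.0504) or without PBS library 2 and LPS 24 h library 1 (adjusted p = 0.0886). Fos, Atf4 and Batf lost the call without LPS 24 h library 1, with adjusted p of 0.101, 0.101 and 0.0976 at the highest, and Fos also without library 2. With the replicate block the Fos call was lost too (-1.38, adjusted p = 0.0527).

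Among 34 other hematopoietic transcription factors, 1 rose and 16 fell in LPS 24 h against PBS, beside 19.1% and 18.5% of all genes, with a median of -0.48. Among those that fell were Maf (-3.81, adjusted p = 0.00648), a macrophage factor, Irf4 (-2.31, adjusted p = 0.00199) and Id3 (-2.28, adjusted p = 0.00730), by edgeR. These 3 were called in 8 of 8 fits with 1 library left out. The macrophage marker sum and the B lineage marker sum given above, the latter mostly Jchain with PBS, were lower in the same LPS 24 h libraries. The part of these cells in these falls was not tested. Without PBS library 2 and LPS 24 h library 1 together, 1 rose and 6 fell, and the calls of Maf (edgeR adjusted p = 0.0679) and Id3 (edgeR adjusted p = 0.0618) were lost. In that fit 1312 of all genes rose and 1069 fell, against 2849 and 2767 in the main fit. With the antibody at 24 h, 1 rose and 11 fell against PBS (24.2% of all genes passed), and at 72 h 1 rose and 3 fell against PBS (13.2%). After LPS alone, 15 of the 34 were higher and 1 lower at 72 h than at 24 h (14.7% and 16.4% of all genes), of which Runx2 was higher (log2 change 1.44, edgeR adjusted p = 0.000377) and Id1 lower (log2 change -1.95, edgeR adjusted p = 0.00794).

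Of 8 corepressor genes for GFI1 and GFI1B, 4 rose and 1 fell in LPS 24 h against PBS, where 37.6% of all genes passed, among them Hdac2 (0.52, edgeR adjusted p = 0.0108), Hdac3 (0.48, edgeR adjusted p = 0.0233) and Hdac1 (0.37, edgeR adjusted p = 0.0226). Each of these 3 lost the call without LPS 24 h library 1 (edgeR adjusted p up to 0.216), Hdac1 also without PBS library 2. None of the 8 was called without the 24 h libraries numbered 1, a fit that called 3678 of all genes, against 5616 in the main fit. With the replicate block 0 of the 8 were called, beside 4163 of all genes. An unadjusted edgeR p below 0.05 was found there for 5 of the 8 and for 6234 of all genes. Hdac2, Hdac3 and Hdac1 had edgeR adjusted p of 0.0525, 0.0732 and 0.0563 in that fit. Hdac3 and Hdac1 also lost the call with upper-quartile scaling (adjusted p = 0.0716 and 0.117).

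Of 10 myeloid receptor genes, 1 rose and 2 fell in LPS 24 h against PBS, a share below the 37.6% of all genes that passed. Flt3, a receptor of early progenitors, fell by 2.45 on the log2 scale (edgeR adjusted p = 0.00113, called in 8 of 8 fits), Csf1r, the M-CSF receptor, fell by 1.03 (edgeR adjusted p = 0.00957) and Csf2rb, the shared beta chain, rose by 0.97 (edgeR adjusted p = 0.0164). With the antibody, Csf2rb rose by 1.36 at 24 h (edgeR adjusted p = 0.00679) and 1.48 at 72 h (edgeR adjusted p = 0.00849) against the same PBS libraries, each in 8 of 8 fits. Csf1r lost the call at 24 h without LPS 24 h library 1 (adjusted p = 0.0632) and Csf2rb without LPS 24 h library 3 (adjusted p = 0.101) or with the replicate block (0.90, adjusted p = 0.0784).

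At 72 h the receptors were also compared between LPS with antibody and LPS alone, where 1 of 10 rose and 3 fell, beside 15.1% of all genes that passed. Cx3cr1, a chemokine receptor of monocytes and macrophages, was at 9.01 ± 6.48 CPM with antibody and 45.6 ± 16.1 CPM without (SD, n = 3 each; log2 change -2.33, edgeR adjusted p = 0.0152). Il3ra, the interleukin-3 receptor alpha chain, was at 19.4 ± 1.25 against 46.9 ± 8.39 CPM (log2 change -1.27, edgeR adjusted p = 0.00566), and its call held in 6 of 6 fits. Csf1r was at 106 ± 15.3 against 228 ± 86.4 CPM (log2 change -1.11, edgeR adjusted p = 0.0229) and Csf2rb at 349 ± 181 against 147 ± 40.9 CPM (log2 change 1.25, edgeR adjusted p = 0.0218). The Cx3cr1 call was lost without antibody 72 h library 1 or 2 (adjusted p up to 0.0606). The Csf1r call was lost without those libraries or LPS 72 h library 3 (up to 0.107), and the Csf2rb call without antibody 72 h library 1 or LPS 72 h library 1 or 2 (up to 0.109). Batf3, from the first list and a partner of IRF8 in dendritic cells, was at 1.06 ± 0.68 against 4.25 ± 1.35 CPM (log2 change -1.97, edgeR adjusted p = 0.0181, lost without LPS 72 h library 1 at 0.0696).

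Of 14 granule and neutrophil genes tested, 1 rose and 2 fell in LPS 24 h against PBS, a share below the 37.6% of all genes. Lyz2, the lysozyme of macrophages and granulocytes, fell by 1.94 on the log2 scale (edgeR adjusted p = 0.00511, called in 8 of 8 fits) and rose by 1.85 from 24 h to 72 h after LPS alone (edgeR adjusted p = 0.0107, 6 of 6 fits). Ms4a3, a marker of granulocyte and monocyte progenitors, rose by 1.74 at 24 h (edgeR adjusted p = 0.0396) and Fcnb, a granule ficolin, fell by 3.00 (edgeR adjusted p = 0.0394). Their calls held in 5 of 8 and 2 of 8 fits, Ms4a3 being lost without PBS library 2 or LPS 24 h library 1 or 3, and Fcnb kept only without PBS library 1 or 5. With the replicate block both calls were lost (Ms4a3 1.70, adjusted p = 0.0616; Fcnb -2.33, adjusted p = 0.0670). Ms4a3 was called in 3 of 9 alternative fits, and was lost with upper-quartile scaling, voom, only the groups compared and 2 pairs of libraries left out (adjusted p up to 0.368). Fcnb was called in 5 of 9 and was also lost with voom and with the same pairs left out (adjusted p up to 0.109). Macrophage and mature neutrophil markers were highest in PBS library 2, at 3139 and 1548 CPM summed, and their part in these changes was not tested.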

How the data were processed

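Whole-number read counts per gene symbol were deposited by the authors as a single table of 17 libraries, and 0 columns could not be matched to a label. The submitters' processing notes name HISAT2 2.2.0, Subread, featureCounts 2.1.1, R 4.3.2, DESeq2 and GRCm38, without roles or order. The annotation, strand setting, treatment of reads that match several genes and filters are not given in the sources used here.

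Counts were filtered with filterByExpr (minimum count 10, minimum total 15), which kept 14920 genes and 99.9% of counts, and scaled with TMM. One edgeR 4.0.16 quasi-likelihood fit over 5 groups gave 9 contrasts, with p-values adjusted over all tested genes by Benjamini-Hochberg. A gene was called at an adjusted p below 0.05. CPM is a count over the library total times its TMM factor. SE is the absolute log2 change over the square root of F. The procedure was tested on simulated data. R 4.3.3, limma 3.58.1 and DESeq2 1.42.0 were used.

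The members and lists were chosen with earlier results of these data known. From each other list, up to 4 called genes with the largest change were named per comparison, and a selection of these is described; 1 such result is not reported here. Loci came from GENCODE M21.

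Replicate numbers were taken to pair samples where every pair's correlation of deviations from group means was over 0.1. This held for LPS 24 h against PBS (0.19, 0.19 and 0.16), from the data and not from a stated shared source. The main fit had no replicate block and so did not use this pairing. The replicate block was fitted over all 17 libraries, so it also covered groups whose numbers did not pair. No paired test within LPS 24 h and PBS alone was run. Alternatives were upper-quartile and DESeq2 size factors, no filter, DESeq2, limma voom with sample weights, only the groups compared, a replicate block and leaving out each library. The single changes recomputed this way were all members in 2 comparisons and, elsewhere, those with an unadjusted p below 0.05, a choice made after a full table had been seen.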

Additional observations from a re-analysis of the deposited data

Results flagged for a closer look

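Gfi1b in PBS library 1, at 62.1 CPM, stood apart from the other 4 PBS libraries (20.5 to 31.1 CPM) by Dixon's criterion for outliers. It was 1 of 13 sets of PBS values examined (the 10 factors and 3 ratios), and chance flags about 1 in 20. The erythroid marker sum of that library was 524 CPM, within the 341 to 553 CPM of the PBS group.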

How the results depend on the processing

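Of the 279 values of single log2 changes under alternatives other than leaving out 1 library, 255 kept their direction and side of the threshold, 11 lost and 11 gained the call, and 2 reversed. With 1 library left out the counts were 195, 20, 4 and 5. These values include changes not called in the main fit, which had no call to lose. Among called changes, Cebpa and Cebpb between the times after LPS kept the call in 1 of 6 and 2 of 6 such fits. Irf8 kept it in 4 of 8 for LPS 24 h against PBS and 4 of 6 for antibody against LPS at 72 h. Against PBS, Cebpb for the antibody at 72 h kept it in 4 of 8 and Cebpa in LPS 24 h in 7 of 8. The other called changes kept it in every such fit. Mean CPM stayed within 1 SD in 100 of 100 cases. The cause of changes was not tested.

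Factors called moved as follows, 2 of the alternatives having been chosen after seeing the data. For LPS 24 h against PBS, 3 fell to 1 without the 24 h libraries numbered 1 and to 1 without PBS library 2 and LPS 24 h library 1 (1 to 3 with any library left out). For LPS 72 h against LPS 24 h, 3 fell to 1 and 1 in the same fits (1 to 3). For the antibody at 24 h against PBS, 1 became 3 (DESeq2), 2 (voom), 2 (only the groups compared) and 2 (without the 24 h libraries numbered 1; 1 to 2 with any library left out). For the antibody at 72 h against PBS, 1 became 2 (DESeq2), 2 (voom), 2 (only the groups compared) and 0 (replicate block), with 0 to 1 for a library left out. For antibody against LPS at 72 h the range was 0 to 1. The interaction went from 0 to 1 with DESeq2 and 1 with voom (0 to 1).

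Cebpe in LPS 24 h against PBS turned to -0.068 and -0.19 in the 2 added fits (-0.067 to 0.94 with a library left out). Against LPS at 72 h, the antibody changes of Spi1 ran from -0.18 to 0.065 and of Gfi1b from -0.44 to 2.23.

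The replicate block ended 2 calls of factors: Irf8 in LPS 24 h against PBS (-0.98, adjusted p = 0.0743) and Cebpb for the antibody at 72 h against PBS (1.07, adjusted p = 0.0778). Numbers paired only the former groups by the criterion used. Among named genes of the lists, the block ended 8 of 18 calls in LPS 24 h against PBS, 6 of 6 for the antibody at 72 h against PBS, 3 of 9 for the antibody at 24 h against PBS, 4 of 9 for antibody against LPS at 72 h, 1 of 15 between the times after LPS and 1 of 3 in the interaction. For the antibody groups at 72 h and 24 h, pairs 1, 2 and 3 correlated at 0.72, -0.02 and 0.70. Each library correlated best with its own number in 6 of 6 cases for LPS 24 h and for the antibody at 72 h, each with PBS.

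All genes called changed over 1.5 times as follows. LPS 24 h against PBS, 5616: 3678 and 2381 in the 2 added fits. LPS 72 h against PBS, 3: 178 (DESeq2), 2170 (voom), 99 (only the groups compared), 0 (block). Antibody 24 h against PBS, 3605: 1721 (block). Antibody 72 h against PBS, 1975: 3053 (voom), 374 (block), 3076 (without the 24 h libraries numbered 1). Antibody against LPS at 24 h, 0: 1 (DESeq2). Antibody against LPS at 72 h, 2256: 4433 (voom), 1123 (only the groups compared). Antibody 72 h against 24 h, 0: 2 (DESeq2). Interaction, 947: 617 (no filter), 1709 (DESeq2), 1585 (voom), 286 (only the groups compared), 333 (block), 127 and 593 (added fits). With 1 library left out, the lowest counts were 3361, 0, 877, 583, 769 and 231 for LPS 24 h, LPS 72 h, antibody 24 h and antibody 72 h against PBS, antibody against LPS at 72 h and the interaction. They arose without LPS 24 h library 1, PBS library 1, antibody 24 h library 2, antibody 72 h library 3, LPS 72 h library 1 and LPS 72 h library 1.

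Upper-quartile scaling moved the median of all genes in LPS 24 h against PBS from -0.03 to -0.16, in the antibody group at 24 h from 0.00 to -0.11 and in LPS 72 h against LPS 24 h from 0.02 to 0.13. The share of called genes that were higher went from 50.7% to 36.8%, 48.3% to 32.5% and 47.2% to 59.2% there, from 51.4% to 32.8% for the antibody at 72 h against PBS, 57.1% to 42.4% for antibody against LPS at 72 h and 63.5% to 49.7% for the interaction.

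With 3 libraries in most groups, 95% intervals were wide for some factors: in the antibody comparison at 24 h they ran from -1.60 to 1.12 for Cebpe and from -1.50 to 2.66 for Gfi1b.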
